A study of Mus musculus with 8 samples.

Results

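The genes described here encode the junctions that hold epithelial cells together and connect their interiors: claudins and other tight junction proteins, desmosomal proteins and connexins. They were chosen by symbol, with earlier results of these data known. The rule took claudins whose symbol is Cldn and a number, connexins of the alpha, beta and gamma groups, and the Tjp genes. It also took the desmogleins, desmocollins and plakophilins, and Ocln, F11r, Marveld2, Marveld3, Cgn, Cgnl1, Pard3, Jup and Dsp. The rule found 64 genes among the 54838 listed in the files. RNA-seq was done on 8 libraries of cultured mouse hepatocellular carcinoma cells. Of these, 1 library was labelled 3H3P. These are 3H3 cells, a line from the liver tumour of a C57BL/6 mouse that lacked MC4R and ate a high-fat diet, with a mutated Hras and with Trp53 disrupted by CRISPR/Cas9. The other 7 were labelled 3H3PM, which is 3H3P with ectopic MYC, and came from subclones 1, 2, 3, 6, 7, 8 and 9 isolated from tumours grown in nude mice, with 1 library each. All 8 thus share the MC4R-deficient origin, the Hras mutation and the Trp53 knockout, and ectopic MYC, passage through a mouse and subcloning cannot be told apart in this comparison. Subclones are separate isolates of 1 engineered line, so the spread between them includes differences between isolates.

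Tight junctions seal the space between epithelial cells. Claudins form the strands and decide which ions pass, occludin and the tricellular protein encoded by Marveld2 sit in the same strands, and the zonula occludens proteins encoded by the Tjp genes tie the strands to actin. Desmosomes rivet cells together through desmogleins and desmocollins, which plakoglobin, plakophilins and desmoplakin link to keratin filaments. Connexins form gap junction channels that pass small molecules between cells. In liver, tight junctions separate bile from blood, and hepatocytes are coupled mainly by the connexins encoded by Gjb1 and Gjb2.

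Library totals ran from 12838521 to 17987068 expected counts, RSEM's estimates of reads per gene, and 1 count was worth 0.0549 to 0.0764 CPM (counts scaled to a common library size with TMM factors). Mitochondrial genes took 3.18% of counts in the 3H3P-labelled library and between 1.97% and 2.31% elsewhere. Trp53 was at 212 CPM in the 3H3P-labelled library and 53.9 ± 7.45 CPM (SD, n = 7) in the subclones, and mouse Myc at 85.2 CPM and 6.54 ± 3.58 CPM. Neither checks the labels, since a frameshift can leave a transcript and the labels do not say which species the added MYC comes from, so the labels are used as names. Because only 1 library carried the 3H3P label, the test assumed that it varies as the subclones do, and an exact permutation test of 1 library against 7 could not go below p = 0.125.

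Of the 64 genes, 21 had 0 counts in every library and 14 had 1 to 32 counts in all 8 together. The other 29 passed the filter on low counts and were tested with edgeR. Of these, 2 passed through the 3H3P-labelled library alone (Cldn1 and Gjb1), 6 through subclones alone and 21 through both kinds of library. In the subclones 11 of the 29 were lower (adjusted p under 0.05 over all genes tested) and 0 were higher, beside 11.8% lower and 7.33% higher among all 14634 genes tested. Cldn1 and Gjb1 are among the 11, and because they passed through the 3H3P-labelled library alone, they could only have been called lower. None of the 6 that passed through subclones alone was called. At an unadjusted p under 0.05 there were 15 members, of which 0 were higher. The share of all genes at that unadjusted threshold was not counted, so this is only a description. By DESeq2 10 were lower and 1, Cldn14, was higher. The median log2 fold change was −0.94 over the 29 members, the same with groups at 0 counts set at their bounds, and 0.03 over all genes tested. Every subclone was below the 3H3P-labelled library for 15 of the 29 and above it for 3 (Cldn14, Cldn20 and Pard3), so that it lay outside their range for 18. Among all genes tested it lay outside for 57.4%, with every subclone below in 30.3% and above in 27.1%. Summed over all 64 genes, TPM (transcript abundance scaled to the same total in each library, a value per transcript length) was 983 in the 3H3P-labelled library and 461 to 525 in the subclones. The single value of the 3H3P-labelled library thus lay above the range of the subclones, and no like sum over other sets of genes was made. In bulk cultures fewer cells that express a gene and less RNA per cell cannot be told apart.

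**Figure D1:**
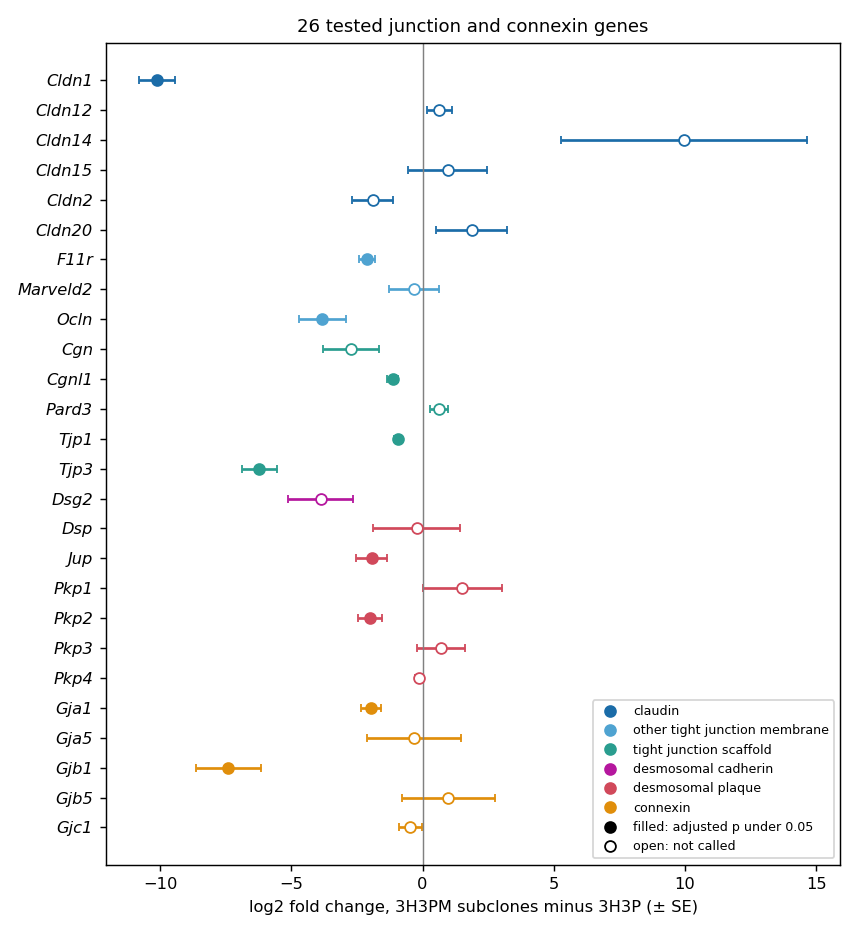
Log2 fold change (x axis, 3H3PM subclones minus 3H3P) of 26 tested members (y axis), coloured by class; bars are ± SE from edgeR, filled points have an adjusted p under 0.05. All 10 filled points lie left of 0; Cldn14 and Gjb1 have 0 counts in 1 of the groups, so the size of their fitted change depends on the prior count.

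The claudins present differed in kind: Cldn1 was nearly absent from the subclones, Cldn12 led there, and Cldn14 was found there alone. Cldn1, a sealing claudin of many epithelia and of hepatocytes (ENSMUSG00000022512.3, GRCm38 chromosome 16, 26356642 to 26371841), was at 32.6 TPM in the 3H3P-labelled library. In the subclones it was between 0 and 0.09 TPM with a median of 0, and 6 counts remained over all 7 against 1156. Its log2 change was −10.12 (SE 0.68, edgeR adjusted p = 6.88e-05), lower in 7 of 7 subclones, and was called in all 14 alternatives tried (adjusted p 5.87e-08 to 0.000419). Cldn16, its neighbour 91.3 kb away and a kidney claudin, had 0 counts in every library.

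Cldn2, which forms cation and water pores in leaky epithelia (ENSMUSG00000047230.6, chromosome X, 139800828 to 139811386), was at 85.3 TPM in the 3H3P-labelled library, the highest claudin there. In the subclones it was at 9.76, 4.13, 19.9, 32.4, 40.3, 25.0 and 38.4 TPM (subclones 1, 2, 3, 6, 7, 8 and 9). Every subclone lay below, but they differed among themselves by up to 9.34-fold in CPM, and the difference did not pass the test (log2 change −1.90, SE 0.77, adjusted p = 0.115; 0.0609 to 0.228 over the alternatives).

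Cldn12, an unusual claudin without the usual PDZ-binding tail (ENSMUSG00000046798.14, chromosome 5, 5489537 to 5514958), was at 27.6 TPM in the 3H3P-labelled library and at 31.3 to 94.7 TPM in the subclones, with a median of 43.2. In CPM 6 of 7 subclones were higher, and the difference did not pass the test (log2 change 0.64, SE 0.49, adjusted p = 0.386). Cldn14, a claudin found in liver, kidney and the inner ear (ENSMUSG00000047109.13, chromosome 16, 93919031 to 94008837), had 0 counts in the 3H3P-labelled library. It was at 2.45, 0.09, 6.29, 24.1, 3.86, 33.9 and 2.45 TPM in subclones 1, 2, 3, 6, 7, 8 and 9. Subclones 6 and 8 stood highest and subclone 2 held a single count. Over the subclones together Cldn14 was at least 41.3-fold higher, with the floor of 3 counts set in the lone library, and at least 26.2-fold without subclone 8, which held 367 of the 823 counts. edgeR did not call it (adjusted p = 0.170) and DESeq2 did (0.0125; 0.0125 to 0.567 over the alternatives).

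The remaining claudins were scarce. Cldn20 was the other claudin above the 3H3P-labelled library in 7 of 7 subclones, on 2 counts against 52, a ratio of 3.91 with a 95% exact binomial counting interval of 1.03 to 33.1 (adjusted p = 0.360). Subclone 2 held 21 of the 52. Subclone 7 held 2 counts, so it lay above only through the scaling of library size. The interval pools the subclones and leaves out the spread between them. Cldn15 had 3 counts against 41 and was not called (adjusted p = 0.690). Cldn4, Cldn7, Cldn8, Cldn9, Cldn10, Cldn11, Cldn18 and Cldn19 had 1 to 15 counts in all libraries together. Cldn3, Cldn5, Cldn6, Cldn13, Cldn16, Cldn17, Cldn22, Cldn23 and Cldn24 had 0. Cldn3 is a claudin of liver and bile duct, and Cldn5 is the claudin of blood vessel walls. A total of 123043878 counts allows a level of up to 0.0244 CPM for a gene at 0 throughout, for counting error only.

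Because TPM is per length, claudins can be set beside each other within a library. Summed claudin TPM was 146 in the 3H3P-labelled library and 40.9 to 155 in the subclones, which overlap. Cldn2 made up 58.3% of it in the 3H3P-labelled library and 10.1% to 46.8% in the subclones. Cldn1 made up 22.3% and at most 0.220%. The share of Cldn12 went the other way, with 18.8% in the 3H3P-labelled library and 47.4% to 81.4% in the subclones. By TPM it was the leading claudin in each of the 7, narrowly in subclone 7 (47.4%, and Cldn2 46.8%). A share also rises when other claudins fall, and the level of Cldn12 did not pass the edgeR test (adjusted p = 0.386). Cldn14 reached 21.6% in subclone 6 and 21.8% in subclone 8.

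**Figure D2:**
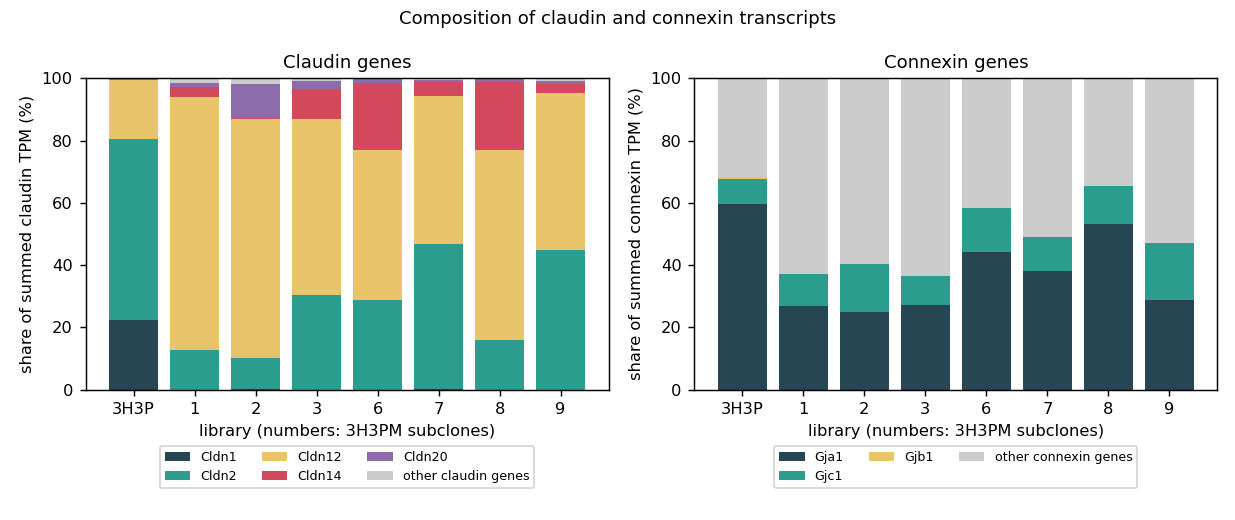
Share of summed TPM (y axis, percent) taken by each claudin (left) and connexin (right) in each library (x axis). Cldn1 (22.3%) and Cldn2 (58.3%) lead in the 3H3P-labelled library and Cldn12 in every subclone; Gja1 holds 59.8% of connexin TPM in the 3H3P-labelled library and 25.1% to 53.1% in the subclones.

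Occludin and the junctional adhesion molecule encoded by F11r were both lower in the subclones. Ocln (ENSMUSG00000021638.12, chromosome 13, 100496507 to 100552718) was at 15.8 TPM in the 3H3P-labelled library and at 2.30, 1.84, 2.25, 0.10, 0.62, 0.24 and 1.41 TPM in subclones 1, 2, 3, 6, 7, 8 and 9. The groups did not overlap, and subclones 6 and 8 were lowest. Ocln fell by 3.82 in log2 units (SE 0.89, adjusted p = 0.0180), a call lost on log2(TPM + 0.1) with limma (0.0803; 0.00279 to 0.0803 over the alternatives). F11r, whose product helps place polarity proteins at new contacts (ENSMUSG00000038235.4, chromosome 1, 171437535 to 171464603), was at 104 TPM in the 3H3P-labelled library and at 17.5 to 36.6 TPM in the subclones, with a median of 28.0. It fell by 2.13 (SE 0.30, 4.37-fold, adjusted p = 0.00206). Marveld2, which encodes tricellulin and lies 43.2 kb from Ocln, was low in all libraries, at 0.65 TPM against 0.19 to 1.18 TPM, and did not pass (log2 change −0.31, adjusted p = 0.846). Marveld3 had 6 counts in all.

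Of the 6 scaffold genes 4 were lower and 0 higher, and the fitted change was larger for Tjp3 than for Tjp1, a difference that was not tested. Tjp1 (ENSMUSG00000030516.14, chromosome 7, 65296165 to 65527781), the main zonula occludens scaffold, was at 81.0 TPM in the 3H3P-labelled library and at 37.5 to 57.7 TPM in the subclones, with a median of 50.3. It fell by 0.94 (SE 0.16, 1.92-fold, adjusted p = 0.00489), a call lost on both TPM scales (0.0583 and 0.0562; 2.37e-05 to 0.0583 over the alternatives). Every subclone lay below the 3H3P-labelled library.

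Tjp3, the scaffold most confined to epithelia (ENSMUSG00000034917.8, chromosome 10, 81273207 to 81291581), was at 25.8 TPM in the 3H3P-labelled library and at 0.04 to 0.77 TPM in the subclones, with a median of 0.40. It fell by 6.22 (SE 0.66, 74.8-fold, adjusted p = 0.000557; 5.02e-10 to 0.00431 over the alternatives). Exons of Tjp3 overlap those of Apba3 on the opposite strand, and no source used here says whether counting used strand. Apba3 itself was at 44.3 CPM and 39.2 ± 7.19 CPM (adjusted p = 0.683).

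The related coiled-coil genes Cgn and Cgnl1, encoding cingulin and paracingulin, link the junction to the cytoskeleton. Cgnl1 (ENSMUSG00000032232.14, chromosome 9, 71626509 to 71771602) was at 86.4 TPM and at 32.5 to 54.0 TPM in the subclones, with a median of 39.3, and fell by 1.14 (SE 0.20, adjusted p = 0.00582). Cgn (ENSMUSG00000068876.14, chromosome 3, 94760069 to 94786492) was at 56.5 TPM in the 3H3P-labelled library and at 14.2, 21.4, 9.66, 2.42, 6.50, 0.31 and 10.6 TPM in subclones 1, 2, 3, 6, 7, 8 and 9. Every subclone was lower, and subclone 8 was far below the rest. With that spread Cgn did not pass (log2 change −2.71, SE 1.06, adjusted p = 0.105), and without subclone 8 it did (0.0380; 0.0380 to 0.252 over the alternatives).

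Pard3 (ENSMUSG00000025812.17, chromosome 8, 127063893 to 127612286), the polarity scaffold that positions tight junctions, was the abundant member on the other side. It was at 32.5 TPM in the 3H3P-labelled library and at 41.5 to 76.3 TPM in the subclones, with a median of 46.1. It was higher in 7 of 7 subclones without passing the test (log2 change 0.62, SE 0.33, adjusted p = 0.222; 0.169 to 0.291 over the alternatives).

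Of the desmosomal genes, Dsg2 was the only cadherin with more than 1 count. Dsg2 encodes the desmoglein of simple epithelia (ENSMUSG00000044393.15, chromosome 18). It was at 27.1 TPM in the 3H3P-labelled library and at 1.19, 7.06, 1.13, 0.15, 2.02, 0.41 and 0.46 TPM in subclones 1, 2, 3, 6, 7, 8 and 9. Subclone 2 stood above the other subclones and still below the 3H3P-labelled library. The log2 change was −3.87 (SE 1.23, adjusted p = 0.0560), and without subclone 2 Dsg2 was called lower (0.00785). It was also called by limma-voom (0.00533) and on log2(TPM + 1) (0.0257), and DESeq2 gave it no adjusted p. Its exons overlap an antisense gene, Gm16090.

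The 3 desmocollin genes Dsc1, Dsc2 and Dsc3, and Dsg1a, Dsg1b, Dsg1c and Dsg3, had 0 counts in all 8 libraries, and Dsg4 had 1 count. Desmosomes are usually built from both kinds of cadherin, and no desmocollin count was found in a library in which Dsg2 had 1522 counts. The desmogleins and desmocollins lie in 1 cluster on chromosome 18, where Dsg3 is 10.6 kb from Dsg2. Dsg1a, Dsg1b and Dsg1c are near-identical copies, so reads would be divided among them, but none was assigned to any.

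Of the 6 plaque genes 2 were lower (Jup and Pkp2), 0 were higher and 4 did not pass. Jup, encoding plakoglobin, which serves desmosomes and adherens junctions (ENSMUSG00000001552.14, chromosome 11, 100368958 to 100397763), was at 45.99 TPM in the 3H3P-labelled library and at 3.56 to 23.3 TPM in the subclones, with a median of 11.8. It fell by 1.93 (SE 0.59, adjusted p = 0.0489). That call stood at the threshold: it was lost without subclone 1, 2, 6 or 7 (0.0709, 0.0691, 0.0753 and 0.0733), with library size alone (0.0586), with no filter (0.0507) and on both TPM scales (0.141 and 0.122), and ran from 0.0246 to 0.141 over the alternatives.

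Pkp2, the plakophilin of simple epithelia and heart (ENSMUSG00000041957.15, chromosome 16, 16213318 to 16272712), was at 37.3 TPM and at 4.02 to 15.8 TPM in the subclones, with a median of 9.57. It fell by 1.99 (SE 0.45, adjusted p = 0.0159; 0.00276 to 0.0501 over the alternatives, the top value on log2(TPM + 0.1)). Pkp4, a plakophilin-related protein also found at adherens junctions (ENSMUSG00000026991.20, chromosome 2, 59160850 to 59355208), was the steadiest member, at 71.6 TPM and 61.7 to 78.2 TPM (log2 change −0.13, SE 0.15, adjusted p = 0.575). Its SD of log2 CPM over the subclones was 0.11. Pkp1 and Pkp3 were at no more than 1.39 and 9.57 TPM in any library, and neither passed (adjusted p = 0.517 and 0.626). Pkp4 held 64.2% of plakophilin TPM in the 3H3P-labelled library and 76.5% to 92.8% in the subclones, and Pkp2 33.5% and 4.78% to 19.6%.

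Dsp, encoding desmoplakin, the link to keratin filaments (ENSMUSG00000054889.10, chromosome 13, 38151294 to 38198577), had no common direction. It was at 8.05 TPM in the 3H3P-labelled library and at 5.66, 24.1, 9.62, 0.87, 0.72, 0.47 and 9.78 TPM in subclones 1, 2, 3, 6, 7, 8 and 9. Subclones 6, 7 and 8 were well below the 3H3P-labelled library and subclone 2 well above it. The log2 change was −0.22 with an SE of 1.66 (adjusted p = 0.942; 0.597 to 0.998 over the alternatives). In subclone 2 Dsp was thus higher while Jup and Pkp2, whose products bind desmoplakin, were at 6.77 and 9.02 TPM. Exons of Dsp overlap Gm10129, a gene of unknown type on the opposite strand.

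**Figure D3:**
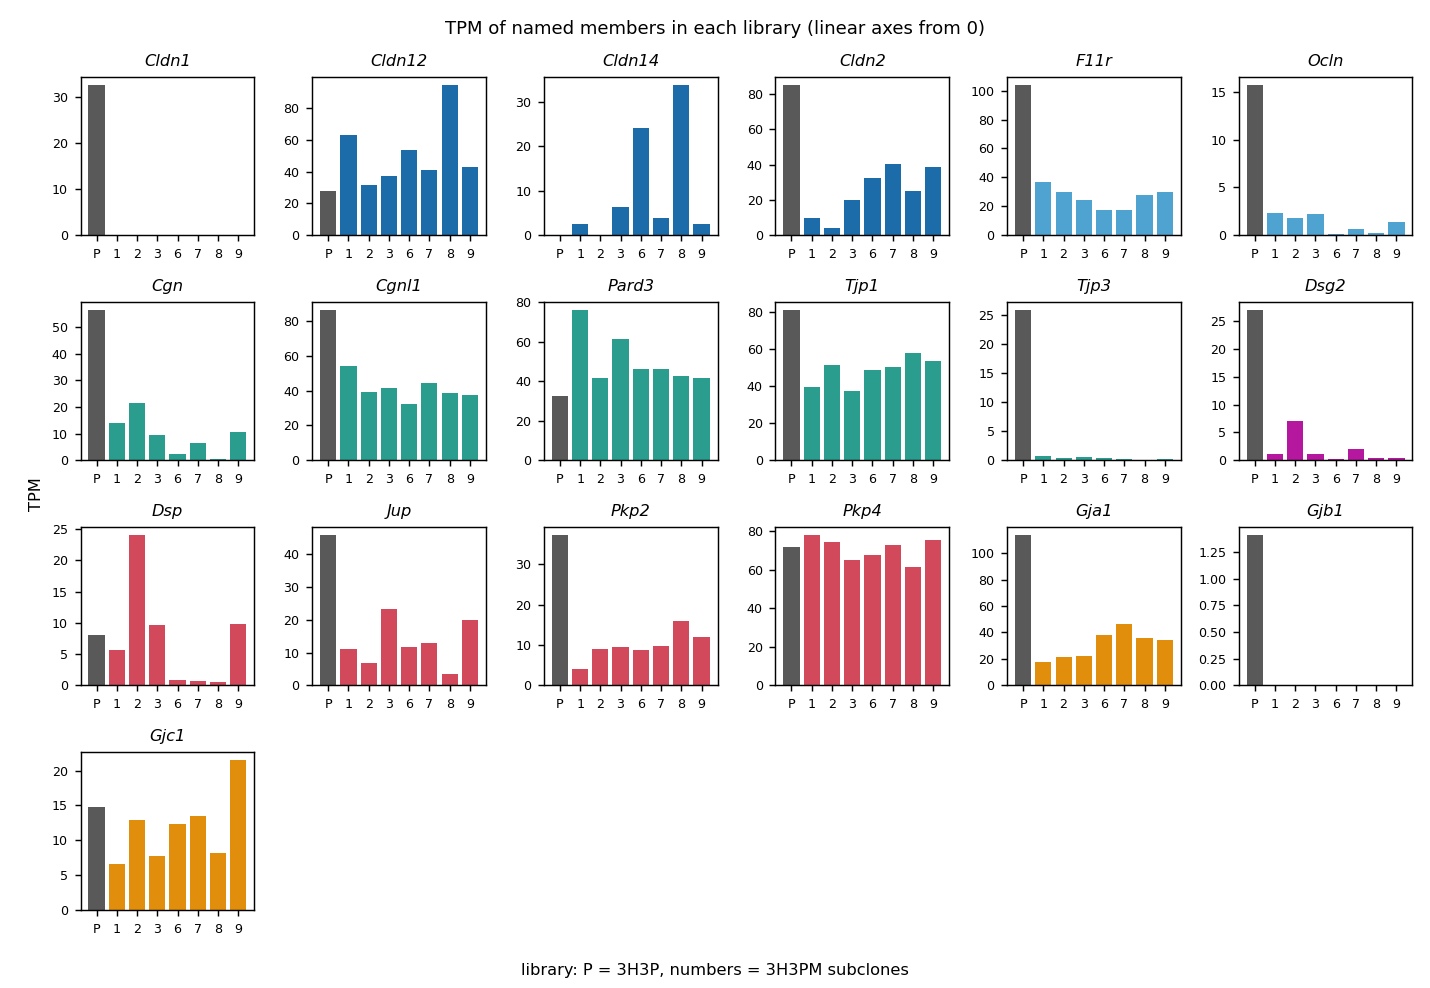
TPM (y axes, linear from 0, scaled per gene) of 19 members named by rule in each library (x axis; P is the 3H3P-labelled library, in grey, numbers are subclones). Cldn1, Tjp3 and Gjb1 are near or at 0 in all 7 subclones, Pkp4 is level, and Cldn14 is highest in subclones 6 and 8.

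Connexin TPM summed to 191 in the 3H3P-labelled library and to 65.0 to 121 in the subclones, without overlap. Gja1, the most widely expressed connexin and in liver mainly one of non-hepatocytes (ENSMUSG00000050953.10, chromosome 10, 56377330 to 56402513), was at 114 TPM and at 17.6 to 46.1 TPM in the subclones, with a median of 34.1. It fell by 1.97 (SE 0.38, 3.92-fold, adjusted p = 0.00854; 0.000391 to 0.0318 over the alternatives). Gjb1, the main hepatocyte connexin (ENSMUSG00000047797.14, chromosome X, 101376378 to 101385629), was low even in the 3H3P-labelled library, at 1.41 TPM from 22 counts, and had 0 counts in all 7 subclones. It was at least 48.8-fold lower there, with the floor of 3 counts set over the 7 libraries together. The call (adjusted p = 0.0427) went when subclone 3, 6 or 9 was left out (0.0596, 0.0519 and 0.0517) and with DESeq2 (0.317; 2.94e-06 to 0.317 over the alternatives). Gjb2, the other hepatocyte connexin, had 0 counts in every library.

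Gjc1, a connexin of muscle and mesenchyme (ENSMUSG00000034520.14, chromosome 11, 102799579 to 102819700), was at 14.7 TPM and at 6.68 to 21.5 TPM, with a median of 12.4 (log2 change −0.46, SE 0.44, adjusted p = 0.499). Gja5, a connexin of vessels and heart, was at no more than 1.38 CPM in any subclone (adjusted p = 0.917). Gjb5 had 2 counts in the 3H3P-labelled library and 27 over the subclones (adjusted p = 0.732), and Gja4 had 3 and 29. Gja3, Gjb6 and Gjc3 had 0 counts throughout, and Gja6 and Gja10 had 2 and 3 in all. By share, Gja1 went from 59.8% of connexin TPM to between 25.1% and 53.1%, and Gjc1 from 7.73% to between 9.43% and 18.3%.

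The members also differed between subclones. Of 23 members with a mean of at least 1 CPM over all 8 libraries, 7 had an SD of log2 CPM above 1 over the subclones. That was 30.4%, and 7.15% of all 12377 such genes, and the median SD was 0.62 over the members and 0.28 over all. Cldn1 and Tjp3 are among the 23, although their subclone means were 0.0598 and 0.622 CPM. The 5 of largest spread were Cldn14 (2.41), Dsp (2.23), Cgn (2.001), Dsg2 (1.93) and Ocln (1.40). The other 2 were Pkp1 (1.32) and Cldn2 (1.19). Between the highest and the lowest subclone, CPM differed 426-fold for Cldn14, 65.1-fold for Cgn, 59.9-fold for Dsg2, 51.2-fold for Dsp and 15.3-fold for Ocln. The lowest subclone held 1 count for Cldn14, 4 for Ocln, 6 for Dsg2, 14.2 for Cgn and 39 for Dsp. Ratios on so few counts are uncertain. Subclones 6 and 8 were the lowest pair for Cgn, Dsg2 and Ocln and the highest pair for Cldn14. Subclone 8 was the lowest of the 7 for 8 of the 23 members and subclone 2 the highest for 7. Pkp4, Tjp1 and Cgnl1 varied little, with SDs of 0.11, 0.14 and 0.21. Each subclone has 1 library, so a difference between single subclones has no replicate check.

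**Figure D4:**
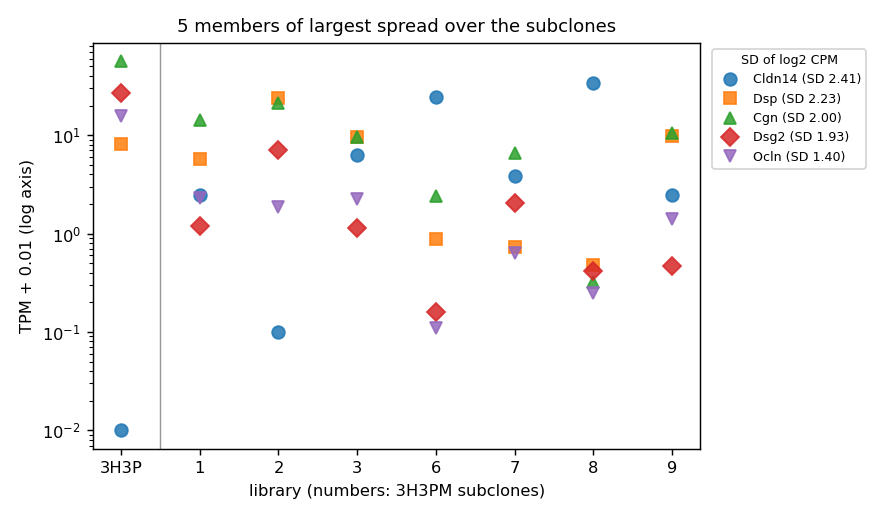
TPM plus 0.01 (y axis, log scale) of the 5 members of largest SD of log2 CPM over the subclones, in each library (x axis). In subclones 6 and 8 Cldn14 lies at 24.1 and 33.9 TPM while Ocln lies at 0.10 and 0.24 TPM; in subclone 2 Dsp and Dsg2 are at 24.1 and 7.06 TPM and Cldn14 at 0.09 TPM.

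Genes that work with these junctions were read from the same fit, in 7 lists of partners and regulators. Of 71 tested genes 19 were lower and 9 higher, with a median log2 change of −0.34, beside 11.8% lower and 7.33% higher among all genes tested. The lists were chosen with earlier results of these data known, so the counts and their distance from these shares are only descriptions. Several single lists lie near these shares. In the adherens junction list 3 of 9 were lower and 0 higher. These were Cdh1, encoding E-cadherin (527 CPM against 34.3 ± 24.8 CPM, adjusted p = 0.00363), the catenin gene Ctnnb1 (1362 CPM against 634 ± 106 CPM, adjusted p = 0.0111) and Ctnna1 (608 against 407 ± 40.5 CPM, adjusted p = 0.0353). The Ctnna1 call was lost without subclone 3, 6, 7 or 9 (up to 0.0627), with library size alone (0.0526) and with no filter (0.0702). Nectin1 did not pass (0.0821). The desmosome partners had 4 of 8 lower and 0 higher: the keratin genes Krt7, Krt8 and Krt18 (adjusted p = 0.00396, 0.00116 and 0.000824) and Ppl, encoding periplakin (210 against 28.5 ± 18.1 CPM, adjusted p = 0.0118).

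In the polarity list 3 of 15 were lower and 1 higher. Crb3, the Crumbs protein of epithelial tight junctions, fell from 14.8 to 0.972 ± 0.619 CPM (adjusted p = 0.00343). Crb2 fell from 7.47 to 0.0177 ± 0.0306 CPM (adjusted p = 0.000327), and Pard3b, a relative of Pard3, from 14.2 to 0.00785 ± 0.0208 CPM (adjusted p = 7.19e-05), so that Pard3b and Pard3 lay on opposite sides of 0. Dlg3 rose from 0.871 to 18.0 ± 10.4 CPM (adjusted p = 0.0224), which limma-voom did not call (0.120).

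Tight junction partners went both ways, with 3 of 18 lower and 3 higher. Ildr2, of the angulin family that gathers tricellulin at corners where cells meet, fell from 212 to 0.420 ± 0.415 CPM (adjusted p = 6.57e-05), and the adhesion molecule gene Jam2 from 19.1 to 1.22 ± 0.865 CPM (adjusted p = 0.0126). Amotl1, encoding an angiomotin that binds junctions and YAP, rose from 28.1 to 101 ± 16.7 CPM (adjusted p = 0.00325). Wnk4, a kinase gene, rose from 18.0 to 36.7 ± 5.25 CPM (adjusted p = 0.0252). The third lower and the third higher, Cxadr (adjusted p = 0.0458) and Ybx3 (0.0494), are named after their values were seen. Epcam, whose product stabilises claudins, had 0 counts in all libraries. Of the pannexins and other connexins, the only tested gene was Panx1, a large-pore channel gene, with 204 counts in the 3H3P-labelled library and 0 in every subclone, at least 452-fold lower (adjusted p = 0.00771).

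Among epithelial transcription and splicing factors 4 of 13 were lower and 2 higher. Ehf, an epithelial ETS factor, fell from 248 to 2.02 ± 1.69 CPM (adjusted p = 0.000387), and Hnf4a, a hepatocyte factor, from 54.2 to 0.787 ± 1.23 CPM (adjusted p = 0.00462). Trp63, a factor of basal and stratified epithelium, rose from 0.187 to 4.17 ± 1.94 CPM (adjusted p = 0.0166), which limma-voom (0.0829) and log2(TPM + 1) (0.0777) did not call. Grhl3, a Grainyhead factor named after its value was seen, had 0 counts in the 3H3P-labelled library and was at least 12.4-fold higher (adjusted p = 0.0170). Grhl2, a known activator of claudin genes, was at 0 and 0.676 ± 0.689 CPM (adjusted p = 0.167). Esrp1 had 0 counts throughout. Of the repressors of junction genes, 3 of 7 were higher and 1 was lower. Snai1 rose from 1.24 to 41.3 ± 11.6 CPM (adjusted p = 0.000933), Twist2 by 5.91 in log2 units (0.000222) and Tcf4 from 28.1 to 59.2 ± 9.55 CPM (0.0229). Snai2 fell from 6.97 to 0.107 ± 0.139 CPM (0.00396). Zeb1 and Zeb2 were at 50.8 and 86.6 CPM in the 3H3P-labelled library and at 46.7 ± 6.76 and 29.8 ± 24.5 CPM in the subclones (adjusted p = 0.747 and 0.274).

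Snail and ZEB proteins bind the E-box CAGGTG, so the letters near the start sites of the members were searched in RefSeq promoters of GRCm38.p6 (250 bases before to 50 after each start, both strands). A promoter was found for 41 of the 64 genes, of which 13 had more than 1. CAGGTG occurred in 16 of the 41 (39.0%) and in 22.6% of all 27025 genes of the table. Among members with a promoter it occurred in 9 of 21 tested (42.9%) and in 4 of 9 called lower (44.4%). Tested members with a match but no call were Cldn14, Dsp, Marveld2, Pard3 and Pkp4. Genes with several promoters have more chances to match. The MYC E-box CACGTG occurred in 2 of 41 (4.88%, and 8.09% of all), and AACCGGTT, a Grainyhead site, in 0 (0.174% of all). Matches from the promoters of Ocln, F11r, Tjp3 and Gjb1 are shown because these 4 genes were called lower, for Tjp3 the farther of its 2 from a start. Those of F11r and Tjp3 lie before the gene positions given above. Those of Ocln and Gjb1 lie within them, before an alternative RefSeq start, and the first Ocln match falls just after the other Ocln start. The other 3 Gjb1 promoters held no match. Each line reads 5′ to 3′ on the gene's strand, with the E-box in capitals and CACCTG being CAGGTG on the other strand.
Ocln, chr13:100552694-100552723, minus strand: ccatcggagtttCAGGTGaatgggtcaccg
Ocln, chr13:100552549-100552578, minus strand: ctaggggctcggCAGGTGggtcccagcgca
F11r, chr1:171437427-171437456, plus strand: agttcggggttgCACCTGcgtacggtgagt
Tjp3, chr10:81291672-81291701, minus strand: gtcacaaggggtCAGGTGtacagacaggga
Gjb1, chrX:101383552-101383581, plus strand: gcgggcacagaaCAGGTGggtgcaggctgg
A match is a run of letters in a window. No binding was measured here, and Cldn1, the member with the largest fall, had none of the 3 motifs in its promoter.

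Markers of liver cells and of other cell types were read in the same libraries. Of 8 hepatocyte genes, 6 were under 1 CPM in the 3H3P-labelled library and all 8 in the mean of the subclones, and Alb was at 3.67 CPM and 0 to 2.08 CPM, so most hepatocyte markers were near 0 in these liver tumour cells. The 6 cholangiocyte and progenitor markers summed to 2866 CPM and to 616 to 1447 CPM, with Epcam at 0. Spp1 made up most of that sum, at 2238 CPM and 366 to 1298 CPM, while Sox9 was above its level in the 3H3P-labelled library (37.7 CPM) in subclones 1, 3, 7 and 9 and Krt19 (114 CPM) in subclone 2 (160 CPM). The summed level of the 8 endothelial markers was 1.99 CPM and 0.383 to 2.15 CPM, with Emcn and Tie1 at 0, and Cldn5 was at 0 too. The 8 fibroblast and stellate markers summed to 1.93 CPM in the 3H3P-labelled library and to 2.78 to 359 CPM in the subclones. The top values came from Pdgfra in subclones 6 and 8 (175 and 349 CPM), in which Cgn, Dsg2 and Ocln were lowest, while Lum was at 0 in every library and Col1a1 at no more than 6.23 CPM. The 8 keratinocyte markers summed to 7.28 CPM and to 9.47 to 483 CPM. Krt14 made up 477 CPM of that sum in subclone 2, in which Dsp and Dsg2 were highest, while Krt5, Krt1 and the desmosomal cadherins of skin Dsg1a, Dsg1b, Dsg1c, Dsg3, Dsc1 and Dsc3 were at 0 in every library. Krt10, Lor and Ivl went the other way, at 3.55, 2.30 and 0.933 CPM in the 3H3P-labelled library and lower in every subclone. Krt14 and Trp63 were higher in every subclone, and Krt15 in all but subclone 8. Of the 8 keratinocyte markers, 1 was called lower and 1 higher. The 8 macrophage markers summed to 15.4 CPM and 11.05 to 31.1 CPM. The part of Pdgfra- or Krt14-expressing cells in these results was not tested.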

How the data were processed

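Total RNA of cultured cells was sequenced from directional NEBNext Ultra libraries, per the labels' protocols. The submitters' processing notes name FastQC, STAR, RSEM, DESeq2 and GRCm38 (mm10); their versions, options and strand setting are not given in those notes or in any other source used here. The deposited files hold an expected count, TPM and FPKM per gene, per the file headers. The expected count is RSEM's estimate, in which reads matching several genes are divided among them. The TPM deposited by the authors depends on an effective length that shifts with isoform use, so the order of subclones can differ from that in CPM. FPKM, also deposited, was left out of all tests.

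Expected counts were rounded and tested with edgeR 4.0.16 (R 4.3.3; glmQLFit and glmQLFTest, with filterByExpr by group and with TMM factors), in all 8 libraries, with Benjamini-Hochberg adjustment over 14634 genes and a threshold of 0.05. The spread came from the 7 subclones (6 residual degrees of freedom). An SE is the log2 fold change divided by the square root of F. Alternatives were library size alone, DESeq2 1.42.0, limma-voom (limma 3.58.1), no filter, a minimum count of 30, limma on log2(TPM + 0.1) and log2(TPM + 1), and leaving out each subclone. The scripts were checked on simulated counts of 1 library against 7, with 50 genes changed at each size. The test called 4% of genes changed 2-fold, 58% at 4-fold, 84% at 8-fold and 88% at 16-fold. A gene that did not pass can therefore still have changed.

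Named members were those called, those with a TPM of 10 or more in any library and the 5 of largest SD over subclones at a mean of 1 CPM or more. Of the other lists the 4 genes of smallest p each were named, with Snai1, Snai2, Zeb1, Zeb2, Grhl2, Ovol2, Esrp1 and Cdh1 (Ovol2 was not tested). Members and lists were chosen with earlier results of these data known. Positions are from GENCODE vM21 (GRCm38), in which 96.2% of tested genes had the same versioned identifier. Some genes that enter the counts are not reported here by name. Igsf5, on 2 rows, was left out of the lists. Intervals and floors (3 counts) cover counting error only.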

Additional observations from a re-analysis of the deposited data

Results flagged for a closer look

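Outliers were looked for over the 7 subclones in the CPM of 21 named members that varied. Some of these were named for their spread over the same subclones, Dsg2 and Dsp among them, so the usual chance rate of about 1 in 20 does not apply and the values are a description. The gap from the top subclone to the next, as a share of the range, was above Dixon's 95% critical value for 2 of them, both in subclone 2. Dsg2 was at 26.6 CPM in subclone 2 and at 6.65 CPM in the next subclone (gap share 0.763). Dsp was at 148 CPM in subclone 2 and at 60.6 CPM in the next (0.602). Of the other plaque genes Pkp1, Pkp3 and Pkp4 were also highest in subclone 2, at 3.58, 8.37 and 174 CPM (Pkp4 was at 138 to 164 CPM in the other subclones), whereas Jup and Pkp2 were not.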

How the results depend on the processing

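Of the 11 members called lower, 6 (among them Cldn1, Cgnl1, F11r, Gja1 and Tjp3) were called lower under every alternative tried, and 5 lost the call under at least 1. Of the 22 named members 0 reversed with a call. The number of members called lower was 7 on log2(TPM + 0.1) and 9 to 13 with 1 subclone left out; the number called higher was 1 with DESeq2 and 0 in every other fit. Over all genes 1072 were higher and 1727 lower. With DESeq2 these were 1670 and 1722, on log2(TPM + 0.1) 1347 and 1329, and with 1 subclone left out 669 to 1185 higher (669 without subclone 3) and 1322 to 1800 lower. Members with an SD above 1 over subclones numbered 7 to 8 with 1 left out. Partner and regulator genes called lower numbered 17 to 23 and higher 8 to 10 with 1 subclone left out. Library size alone shifted the median of all genes by 0.08 on the log2 scale. The cause of these shifts was not tested. The replicate check rests on 1 library labelled 3H3P, and members at 22 counts or fewer there have wide intervals. No paired analysis was possible, because the numbers name subclones and the 1 library labelled 3H3P has no partner among them.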
